A study of Mus musculus with 46 samples.

Results

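The small (40S) subunit of the cytosolic ribosome carries 32 proteins with symbols of the Rps type, Rpsa and Fau, and all 32 genes were present in every count table, out of 10464 gene symbols in all. Genes were taken by symbol, and pseudogenes, retrogenes, the paralogue Rps27l and the S6 kinases (Rps6k genes) were not members. By the position of the protein in the subunit, 14 belonged to the head (Rps3, Rps10, Rps12, Rps15, Rps18, Rps19, Rps20, Rps25, Rps27a, Rps28 and Rps29 among them) and 18 to the body and platform (among them Rpsa, Rps2, Rps4x, Rps6, Rps7, Rps9, Rps13, Rps14, Rps21, Rps23, Rps24, Rps27 and Fau). Ribosome footprints and poly(A) RNA came from the same 23 samples of EPP2 cells, a murine pancreatic cancer line, here as 1 clone that expresses Cas9 on addition of doxycycline. Control cells (genotype WT in the labels) received DMSO (n = 6) or 300 nM torin 1, an inhibitor of the mTOR kinase (n = 6). Cells in which Ctu1 had been disrupted by 300 ng/ml doxycycline from 4 days earlier (Ctu1 iKO) received DMSO (n = 5) or torin 1 (n = 6), and each treatment lasted 2 h. In the study, control cells carried guides to non-coding regions or had no doxycycline, and the labels do not say which applied here. Ctu1 is a subunit of the enzyme that thiolates the wobble uridine of tRNAs reading AAA, CAA and GAA codons. The iKO cells were selected as pools that carry a pair of guides, and Ctu1 footprints lay between 1.30 and 2.27 counts per 1000000 counts (CPM) in Ctu1 iKO with DMSO against 1.58 to 3.43 in control, and its RNA between 3.09 and 4.95 CPM against 4.22 to 5.25, so the groups overlapped in both assays.

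The 40S subunit binds mRNA, scans to the start codon and decodes it, and its proteins are made in equal numbers with the rRNAs and the proteins of the 60S subunit. Their mRNAs are known as TOP mRNAs because they begin with a C followed by a run of pyrimidines, and when mTORC1 is inactive such mRNAs leave polysomes while remaining in the cell. Rps6 is phosphorylated by S6 kinase downstream of mTORC1 and is the usual marker of that pathway. Rps3 lines the channel through which mRNA enters, Rps25 takes part in initiation on internal ribosome entry sites, and Rps27a and Fau are translated as fusions to ubiquitin and to a ubiquitin-like protein.

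To show where the annotated 5′ ends lie relative to such a stretch, windows of 30 bases were read from RefSeq promoter sequences (GRCm38.p6), from 10 bases before the annotated start to 20 bases from it. A stretch was a C followed by at least 4 bases that are C or T, on the sense strand only, and it is in capitals. The promoter table had entries for 24 of the members, and Rps14, Rps20, Rps27a and Rps29 were among those without one. In 7 of the 24 the annotated start itself was a C followed by at least 4 such bases (29.2%), against 3.01% of 27025 genes with an entry. In each of these 7 the base before the start was also C or T. The run of pyrimidines thus began upstream, and capitals mark it from the start on. Within 5 bases of the start, on either side, a stretch began in 12 members (50%), against 21.2% of all genes. The windows of the 7 members with the stretch at the start, and of Rps3, where these letters are not at the start, are shown, and of the annotated starts of Rps21 the one with the stretch was taken.

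Fau (chr19:6057937-6057966, plus strand): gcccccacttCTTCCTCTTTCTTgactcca
Rps6 (chr4:86857348-86857377, minus strand): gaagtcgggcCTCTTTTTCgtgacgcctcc
Rps10 (chr17:27635225-27635254, minus strand): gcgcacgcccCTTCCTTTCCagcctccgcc
Rps15a (chr7:118116128-118116157, minus strand): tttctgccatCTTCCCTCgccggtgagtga
Rps18 (chr17:33955646-33955675, minus strand): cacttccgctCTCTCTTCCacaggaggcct
Rps21 (chr2:180257369-180257398, plus strand): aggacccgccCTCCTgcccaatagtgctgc
Rps27 (chr3:90213629-90213658, minus strand): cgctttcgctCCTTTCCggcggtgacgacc
Rps3 (chr7:99483690-99483719, minus strand): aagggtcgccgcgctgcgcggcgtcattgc

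Annotated starts need not be the ones used in EPP2 cells. In torin 1-treated control cells (the values are described further on), the median log2 change of footprints was -1.10 over the 7 members with the stretch at the start, with a range from -1.60 to -0.70. Over the other 17 members with an entry it was -0.9996, with a range from -1.46 to -0.79, so that the ranges overlapped.

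Footprint counts summed to between 4602092 and 52907878 per library, and RNA counts to between 129881946 and 325494304. All values are shares of a library, so that a change in the total amount of translation or of RNA is not seen, and in such bulk samples fewer cells and less RNA per cell cannot be told apart. Libraries were scored on the torin 1 response of all genes outside the cytosolic ribosomal proteins, taken from replicates 1 and 2 without the library scored. The dividing point came from replicates 1 to 3, so that these were favoured to lie on their own side. On this score, 6 of 23 RNA libraries lay on the side of the other treatment. They were replicates 4 and 5 of Ctu1 iKO with DMSO and replicates 5 and 6 of both torin 1 groups, whereas 0 of 23 footprint libraries did so. Results on RNA rest on replicates 1 to 3 of each group, as do those on translational efficiency, the ratio of footprints to RNA. This choice was fixed before the score, after an earlier report of these data had found RNA libraries of other replicates against their labels. Of the epithelial markers of the cell type, Krt8 and Krt18 RNA was present in all RNA libraries (medians 187 and 158 CPM), and Sox9 and Krt19 at 30.2 and 12.6 CPM. Epcam was listed in 11 libraries, at 1.12 CPM, and Cdh1, Krt7 and Muc1 were not listed. Of the mesenchymal markers, Vim was at a median of 2998 CPM, Col3a1 at 303, Col1a1 at 108, Pdgfrb at 29.0 and Acta2 at 9.89, and Col1a2 was not listed. None of 4 acinar markers and 1 of 4 leukocyte markers, Cd68 at 1.81 CPM, were listed.

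In control cells with DMSO, the 32 genes took up between 3.72% and 4.29% of all footprints. This share lay between 1.90% and 2.19% with torin 1, between 3.56% and 3.91% in Ctu1 iKO with DMSO, and between 1.15% and 1.34% in Ctu1 iKO with torin 1. Both torin 1 groups were thus apart from the DMSO groups and from each other, while the DMSO groups overlapped. On RNA (replicates 1 to 3), the share was between 3.63% and 3.86% in control with DMSO, between 3.94% and 4.25% with torin 1, from 3.70% to 4.19% in Ctu1 iKO with DMSO, overlapping the other groups, and between 4.01% and 4.33% in Ctu1 iKO with torin 1.

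**Figure D1:**
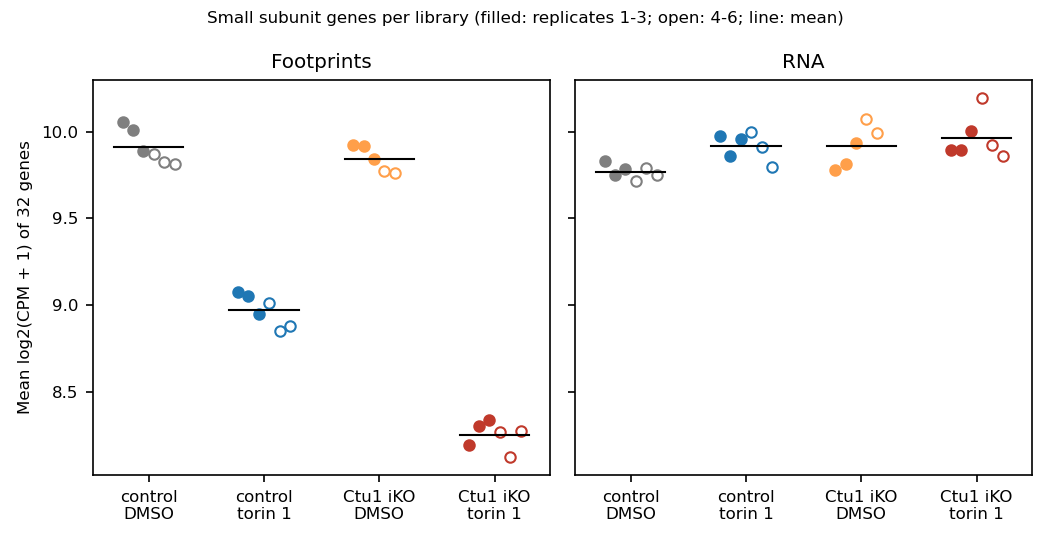
Mean log2(CPM + 1) over the 32 small subunit genes in each library (y axis) by group (x axis), for footprints (left) and RNA (right), with filled points for replicates 1 to 3, open points for replicates 4 to 6 and a line at the mean of all libraries of the group. In footprints the group means were 9.91 in control with DMSO, 8.97 with torin 1, 9.84 in Ctu1 iKO with DMSO and 8.25 with torin 1, and on RNA, over replicates 1 to 3, they were 9.79, 9.93, 9.84 and 9.93 in the same order.

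Footprints on different members were far from equal per coding length. In control cells with DMSO, the median density of a gene ranged from 406 to 9151 CPM per kilobase of coding sequence, a 22.5-fold span, with 1965 as the middle value of the 32. Densest was Rps28, which joins the subunit near the mRNA exit, with 8826 to 11263 CPM per kilobase over the 6 libraries. It was followed by Rps24, a body protein, at 6479.9 to 7695, and by Rps14 of the platform, at 6111 to 7796, so that Rps24 and Rps14 overlapped and Rps28 lay above both. At the low end stood Rps6 with 502 to 697 and Rps2, which helps to form the mRNA entry, with 340.3 to 502 CPM per kilobase. The 6 libraries of Rps2 reached up to the lowest of Rps6.

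Ribosomal protein genes have many processed copies in the genome, from which their reads may be hard to tell apart. Of the 28-base words in the coding sequence of a member, a median of 96.7% also occurred elsewhere in GRCm38, against a median of 0% in 58 genes for 40S maturation factors. Rps3 shared 22.2% and Rps9, a body protein, 58.0%, whereas 12 members, Fau and Rps28 among them, shared 100%. Across the 32 members the shared portion and the density in control DMSO had a Pearson r of -0.08 and a Spearman rho of -0.25, and coding length and density an r of -0.42, where each point is 1 gene and all share the same libraries.

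The near copies Rps23rg1, Rps27rt, Rps18-ps5 and Rps18-ps6 had footprints without matching RNA. Rps23rg1, a retrogene, had 795 to 987 CPM in footprints of control cells with DMSO and 1.06 to 2.51 CPM on RNA. Its parent Rps23, which sits at the decoding centre, had fewer footprints, with the copy at a median of 237% of the parent, but on RNA the copy was at 0.347%. In the other groups the footprint value was 239%, 238% and 236%, so that copy and parent moved together. Rps27rt held 28.3% to 29.5% of Rps27 in the 4 groups, and the pseudogenes Rps18-ps5 and Rps18-ps6 held 27.2% to 30.9% of Rps18, although each was under 1% of its parent on RNA. Footprint levels of a member are therefore uncertain where copies exist, and whether reads were divided among copies was not tested.

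Footprints of Rps27l, a paralogue of Rps27 with its own RNA, did not pass the test with torin 1 in either genotype. Rps27l had 151 to 209.5 CPM in footprints of control cells with DMSO and 186 to 291 with torin 1 (log2 change 0.18, SE 0.10, edgeR adjusted p = 0.315), and 199.7 to 279 and 187 to 297 in the same order in Ctu1 iKO (log2 change -0.09, SE 0.13, edgeR adjusted p = 0.764). As a median percent of Rps27 it was at 20.2% in control with DMSO and at 136% in Ctu1 iKO with torin 1.

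**Figure D2:**
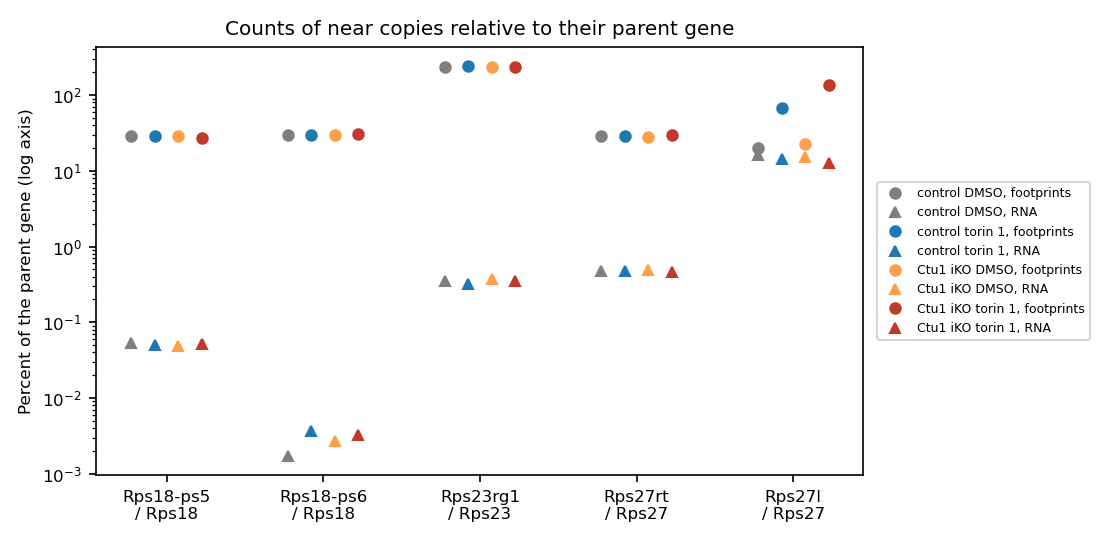
Counts of 5 near copies as a percent of the parent gene (log axis, median over the libraries of a group), for footprints (circles) and RNA (triangles) in the 4 groups. In footprints the copies Rps18-ps5, Rps18-ps6, Rps23rg1 and Rps27rt kept 1 ratio to their parent in all groups, whereas Rps27l stood between 20.2% and 136% of Rps27.

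To examine how inhibition of mTOR changes ribosome occupancy on these mRNAs, torin 1 was compared with DMSO in control cells. Footprints on all 32 small subunit genes fell (edgeR quasi-likelihood test, adjusted p under 0.05), as did 4.33% of 9856 genes tested, and in each of the 32 all 6 torin 1 libraries lay below all 6 DMSO libraries, which held for 2.41% of genes. The largest change was that of Rps27 (-1.60 on the log2 scale, 3.02-fold lower), and the median was -1.03, 2.04-fold lower, against a median of 0.01 over all genes tested. Head and body proteins had like medians, -1.03 over 14 and -1.03 over 18 genes.

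Rps27, a zinc-binding protein of the platform, fell most. It had between 878 and 1067 CPM (median 944) in footprints with DMSO and between 298 and 434 CPM (median 326) with torin 1, 3.02-fold lower (log2 change -1.60, SE 0.10, edgeR adjusted p = 9.12e-08). Rps19, a head protein and the gene most often mutated in Diamond-Blackfan anaemia, stood between 2212 and 2736 CPM (median 2539) with DMSO and between 852 and 1031 CPM (median 973) with torin 1 (log2 change -1.46, SE 0.09). Rps18, a head protein that contacts the large subunit, went from between 1674 and 2307 CPM (median 1991) to between 663 and 975 CPM (median 836), a log2 change of -1.37 (SE 0.11). The groups of these 3 genes were far apart and no torin 1 library reached the DMSO range. Rps20, a head protein, had between 268 and 438 CPM (median 386) with DMSO and between 133 and 192 CPM (median 175) with torin 1, with a log2 change of -1.24 (SE 0.11).

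Among the smaller changes were those of Rps21, Rps14 and Rps15. Rps21, a small protein of the platform side, had between 393 and 436 CPM (median 419) with DMSO and between 246 and 289 CPM (median 276) with torin 1 (log2 change -0.70, SE 0.08, edgeR adjusted p = 1.76e-05). Here too the groups did not overlap. Rps14, a platform protein whose loss is linked to the 5q minus syndrome, stood between 2768 and 3532 CPM (median 2938) with DMSO and between 1628 and 2374 CPM (median 1851) with torin 1 (log2 change -0.76, SE 0.10), and Rps15, near the decoding site, between 754 and 1095 CPM (median 882) and between 451 and 653 CPM (median 565) (log2 change -0.79, SE 0.13).

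In Ctu1 iKO cells, footprints on all 32 genes likewise fell with torin 1 (edgeR, adjusted p under 0.05), against 4.52% of 9855 genes tested. No member overlapped between the 5 DMSO and the 6 torin 1 libraries, which held for 3.41% of genes in this direction. The largest change was again that of Rps27, at -2.61 on the log2 scale (6.11-fold lower), and the median was -1.63. For Rps27 the DMSO libraries had 1125, 1014, 921, 857 and 865 CPM and the torin 1 libraries between 146 and 186 CPM (median 170.4). For Rps15, with a log2 change of -1.25 (SE 0.14), the DMSO libraries had 1008, 987, 926, 733 and 770.2 CPM and the torin 1 libraries between 299.6 and 489.7 CPM (median 405), a narrower gap, but again with no overlap.

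On RNA, no member passed the test as lower. With torin 1 in control cells (replicates 1 to 3), the log2 change of RNA was above 0 in all 32 members, from 0.01 to 0.32 with a median of 0.16. Rps24 and Rps4x passed the test and rose (2 of 32, against 13.1% of 9617 genes in either direction). Rps4x, which is encoded on the X chromosome, had 678, 626 and 662 CPM with DMSO and 804, 774 and 833 CPM with torin 1 (log2 change 0.32, SE 0.07, edgeR adjusted p = 0.0235). Rps24 had 1741, 1699 and 1610.5 CPM with DMSO and 2072, 1949 and 1998 CPM with torin 1 (log2 change 0.28, SE 0.06, edgeR adjusted p = 0.0239). In both genes the 3 torin 1 values exceeded the 3 DMSO values, as in 12 of the 32 members and in 11.8% of all genes. Replicate numbers paired the RNA libraries, and with the number as a block 26 members rose, where 20.7% of all genes rose, DESeq2 called 10 as higher against 9.38%, and leaving out 1 library at a time left between 0 and 2. The count was 0 without any one of DMSO replicates 1 and 2 and torin 1 replicates 1 and 2, and 1 without DMSO replicate 3.

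In Ctu1 iKO, 0 of 32 members passed the test on RNA with torin 1 (edgeR, 8.25% of 9619 genes did so in either direction), 7 had an unadjusted p under 0.05 against 24.7% of all genes, and DESeq2 called 3 as higher against 8.23%. The median log2 change was 0.15, and with the replicate block 12 members rose, where 17.1% of all genes rose. Leaving out 1 library at a time moved the median between 0.10 and 0.20, and library totals in place of TMM gave 0.091. For Rps27 the RNA values were 526, 507 and 386 CPM in control with DMSO, 621, 562 and 451 with torin 1, 554, 593 and 468 in Ctu1 iKO with DMSO and 613, 627 and 474 with torin 1. These groups overlapped, while the footprints of the gene were 3.02-fold and 6.11-fold lower with torin 1.

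**Figure D3:**
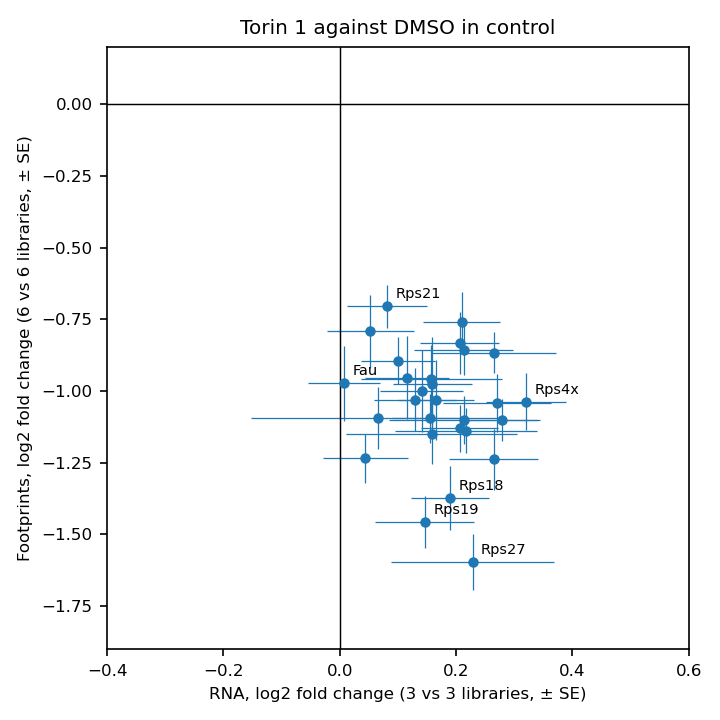
Log2 fold change with torin 1 against DMSO in control cells on RNA (x axis, 3 against 3 libraries) and in footprints (y axis, 6 against 6 libraries) for small subunit genes, with standard errors as bars. All points lie at or to the right of 0 on RNA, up to 0.32, and at -0.70 or lower in footprints.

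Translational efficiency fell in 31 of 32 members with torin 1 in control (edgeR interaction of assay and treatment, replicates 1 to 3, 1.12% of 9616 genes fell), with a median log2 change of -1.21. The exception was Rps28, with a log2 change of -1.13 (SE 0.26, adjusted p = 0.0683). With the replicate block, which the pairing of the numbers in both assays allows, all 32 passed, Rps28 included, where 2.02% of all genes fell. Leaving out 1 sample at a time left between 24 and 32 members, among 61 to 100 genes that fell, with Fau, Rps2 and Rps15 passing in 1 of these 6 fits, and library totals in place of TMM gave 26, where 0.874% of all genes fell. RNA values of Rps28 differed between replicates, with 653, 629 and 957 CPM in control with DMSO and 699.6, 633 and 968 CPM with torin 1, replicates 1 and 2 being below replicate 3 in both groups. Replicates 4 to 6 of control with DMSO, which this fit does not use, had 883, 1000 and 885 CPM, nearer to replicate 3. The lowest values were those of Rps27 (-1.80, SE 0.22), Rps19 (-1.64, SE 0.13) and Rps18 (-1.61, SE 0.21), and among the highest were those of Rps21 (-0.78, SE 0.12) and Rps15 (-0.88, SE 0.17). In Ctu1 iKO the efficiency of all 32 fell (edgeR, 1.67% of 9615 genes), with a median of -1.83 and the lowest value in Rps27 (-2.79, SE 0.19).

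Ctu1 iKO and control were next compared in cells with DMSO. The labels give doxycycline for Ctu1 iKO only. If control cells had none, loss of Ctu1 cannot be told apart from doxycycline and Cas9 expression in any comparison of the genotypes. No member passed the test in footprints (0 of 32 by edgeR, 3 with an unadjusted p under 0.05 against 17.9% of all genes, 1 lower by DESeq2 against 3.05%), against 1.04% of 10397 genes called lower, and 0 members were apart between the groups, which held for 1.55% of genes in the lower direction. The median log2 change was -0.09, and 29 of 32 values lay below 0. Leaving out 1 library moved this median between -0.13 and -0.043, the latter without replicate 1 of control with DMSO, and library totals in place of TMM gave -0.05. Of the members, Rps14 had the smallest p, with between 2768 and 3532 CPM (median 2938) in control and 2815, 2726, 2457, 2370.1 and 2296 CPM in replicates 1 to 5 of Ctu1 iKO (log2 change -0.31, SE 0.09, edgeR adjusted p = 0.0922). Rps24, with between 2586 and 3070.3 CPM (median 2812) in control, had 2295, 2365, 2212, 2905 and 2678 CPM in Ctu1 iKO (log2 change -0.22, SE 0.08, adjusted p = 0.154). In both genes the ranges overlapped. Rpsa, which sits on the solvent side of the platform near the mRNA exit, and Rps19 followed with log2 changes of -0.21 (adjusted p = 0.235) and -0.17 (adjusted p = 0.294).

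On RNA, 0 of 32 members passed the test between the genotypes with DMSO (edgeR, 3 with an unadjusted p under 0.05 as in 24.4% of all genes, 3 higher by DESeq2 as were 8.32%), where 5.12% of 10119 genes did in either direction, and the replicate block gave 4, all higher, a share below the 14.3% of all genes that were higher in that fit. With torin 1, 0 members passed on RNA (edgeR, 1 with an unadjusted p under 0.05 against 20% of all genes, 0 by DESeq2), where 1.31% of 9650 genes did, and the replicate block gave 1 lower and 2 higher, against 32.8% of all genes in either direction. The number of genes called depended on single libraries, with 0 to 131 called with DMSO without any one library other than replicate 3 of Ctu1 iKO (511, and 518 with all), and with torin 1 between 1 and 20 without any one other than replicate 3 of Ctu1 iKO (406, and 126 with all). Median log2 changes of RNA were 0.08 and 0.06, and leaving out 1 library moved them between 0.0072 and 0.13 and between 0.0053 and 0.086, the lowest without replicate 3 of Ctu1 iKO with DMSO and replicate 2 of control with torin 1. Library totals in place of TMM gave 0.058 and 0.0098. In translational efficiency with DMSO, 0 members passed (edgeR, 8 with an unadjusted p under 0.05 against 3.76% of all genes, 1 lower by DESeq2 against 0.148%), as did 0% of 10117 genes in the lower direction, and the median was -0.20. With all replicates this median was -0.31. Rps24 had the lowest value (-0.43, SE 0.09, adjusted p = 0.747).

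With torin 1 in both genotypes, loss of Ctu1 went with lower footprints in 31 of 32 members (edgeR, 2.6% of 9913 genes were called lower). The torin 1 libraries are the same as in the comparisons with DMSO above. In 27 of the 32, every Ctu1 iKO library lay below every control library, which held for 2.07% of genes, and the members that overlapped were Rps10, Rps13, Rps15, Rps29 and Rps4x. Rps13, a body protein, did not pass, with between 460.4 and 652 CPM (median 604) in control and between 376 and 492 CPM (median 474) in Ctu1 iKO (log2 change -0.38, SE 0.11, edgeR adjusted p = 0.0714). Replicate numbers paired these libraries, and with the replicate block all 32 members passed, as did 7.35% of all genes. The largest change was that of Rps12, at -1.22, and the median over the members was -0.76. Medians were -0.68 for head and -0.79 for body proteins. Among replicates 1 and 2 alone, where 0 genes of all tested were called, 0 members passed and the median was -0.81.

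Smallest p-values in this comparison were those of Rps7, Rps19, Rps18 and Rps27. Rps7, a body protein, had between 417 and 479.8 CPM (median 432) in control with torin 1 and between 206 and 251 CPM (median 231) in Ctu1 iKO with torin 1 (log2 change -0.97, SE 0.08, edgeR adjusted p = 2.10e-05). Rps19 had between 448 and 598 CPM (median 508) in Ctu1 iKO with torin 1, against the 852 CPM of the lowest control library, a log2 change of -0.96 (SE 0.09). Rps18 had between 318 and 423 CPM (median 380.4), with a log2 change of -1.19 (SE 0.11), and Rps27 changed by -1.07 (SE 0.10). In none of these 4 genes did a Ctu1 iKO library reach the control range. Rps12, a peripheral head protein, had the largest change, from between 265 and 482 CPM (median 408) in control to between 134 and 209 CPM (median 173) in Ctu1 iKO (2.33-fold lower).

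**Figure D4:**
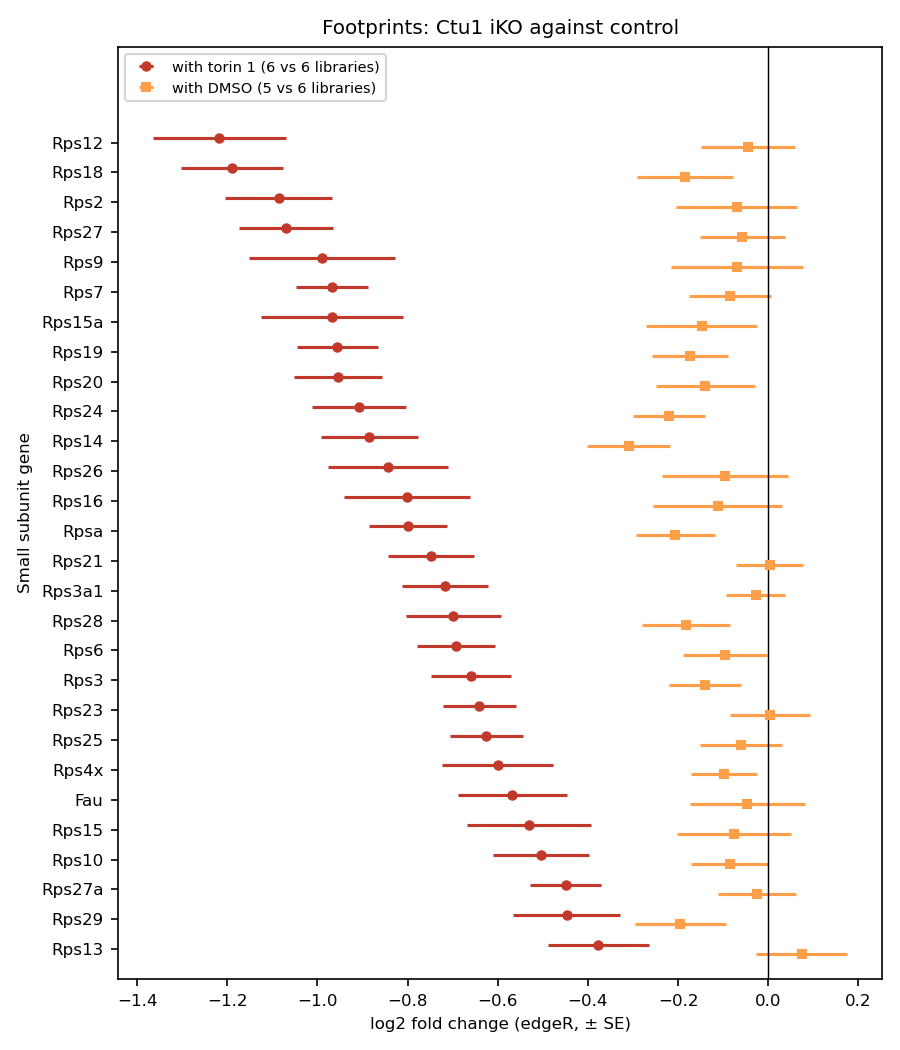
Log2 fold change of footprints in Ctu1 iKO against control (x axis, edgeR, bars are standard errors) for small subunit genes (y axis, ordered by the change with torin 1), with torin 1 (circles) and with DMSO (squares). The squares lie close to 0, from -0.31 to 0.07, and the circles from -1.22 to -0.38, each to the left of the square of its gene.

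Translational efficiency with torin 1 was lower in Ctu1 iKO than in control in 6 of 32 members (Rps12, Rps19, Rps20, Rps24, Rps9 and Rpsa) by edgeR, where 0.114% of 9644 genes fell. All 32 values were below 0, with a median of -0.76, and Rps12 had the lowest (-1.41, SE 0.20, adjusted p = 0.0218). This count depended on the fit. Replicate numbers paired the libraries of this comparison in both assays, and with the replicate block 28 members passed (1.04% of all genes fell), as did 24 with DESeq2 (0.964% of all genes). Without any one of control replicates 1, 2 and 3 or Ctu1 iKO replicates 1 and 2 it was 0, and without Ctu1 iKO replicate 3 it was 7.

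Whether the torin 1 change itself differed between the genotypes was tested as an interaction over all 23 footprint libraries. In 16 of 32 members the change was more negative in Ctu1 iKO than in control (edgeR, adjusted p under 0.05), as it was in 0.639% of 9857 genes. Among the 16 were Rps2, Rps3, Rps6, Rps7, Rps12, Rps18, Rps19, Rps24, Rps25, Rps27 and Rpsa. All 32 differences were below 0 and ranged from -1.17 for Rps12 to -0.25 for Rps29, with a median of -0.62 against 0.01 over all genes. Of the head proteins 7 of 14 passed (median -0.54), and of the body proteins 9 of 18 (median -0.66). DESeq2 called 25 (1.08% of all genes) and the fit with the replicate block 31 (1.35% of all genes), although the numbers did not pair the torin 1 and DMSO libraries of Ctu1 iKO, whereas replicates 1 and 2 alone gave 0 by edgeR with a median of -0.63.

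Rps27 had one of the smallest p-values, with changes of -1.60 in control and -2.61 in Ctu1 iKO and a difference of -1.01 (SE 0.14, adjusted p = 2.46e-04). For Rps7 the DMSO libraries stood between 826 and 1072 CPM (median 884) in control and at 1006, 929, 778, 848 and 816 CPM in Ctu1 iKO, which overlapped, and the difference of the torin 1 change was -0.88 (SE 0.11, adjusted p = 2.18e-04). In Rps19 the DMSO libraries of Ctu1 iKO had 2202, 2238, 2427, 2326 and 2145 CPM, overlapping the control range, and the difference was -0.78 (SE 0.12, adjusted p = 6.61e-04). In Rps12 the change was -0.9996 in control and -2.18 in Ctu1 iKO, the widest gap of the 32 (difference -1.17, SE 0.19).

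Rps3 and Rps25, which differ in codon content, were followed through all groups. In the coding sequence of Rps25, AAA made up 7.20% of 125 codons, the highest of the members, and in Rps3 2.06% of 243 codons. Rps25 had between 974 and 1226 CPM (median 1066) in control with DMSO, between 580.2 and 708 CPM (median 626) with torin 1, 1193, 1145, 1030.0, 982 and 1014 CPM in Ctu1 iKO with DMSO and between 391 and 456 CPM (median 422) with torin 1. Rps3 had between 1254 and 1524 CPM (median 1356), between 744 and 876 CPM (median 769), 1169, 1241, 1376, 1339 and 1292 CPM and between 450.0 and 609 CPM (median 516) in the same order. In each gene the DMSO groups overlapped and the torin 1 groups stood apart. The log2 difference of Rps25 footprints between Ctu1 iKO and control was -0.06 with DMSO and -0.63 with torin 1 (SE 0.09 and 0.08), and that of Rps3 -0.14 and -0.66 (SE 0.08 and 0.09). The interaction was -0.56 (adjusted p = 0.0128) for Rps25 and -0.51 (adjusted p = 0.0291) for Rps3 by edgeR, and Rps3 passed in 11 of the 23 fits that left out 1 library while Rps25 passed in all 23.

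On RNA, Rps25 had 831, 794 and 683 CPM in control with DMSO and 832, 923 and 797 CPM in Ctu1 iKO with DMSO, and Rps3 had 1305, 1215 and 1198 and 1167, 1232 and 1296 CPM. These groups overlapped in both genes. Over the members AAA had a median share of 3.11% of codons, against 2.16% over 10164 listed genes with a coding sequence, and AAA, CAA and GAA together 6.04% against 6.06%. Lysine codons made up a median of 10.7% against 5.82%. Across the 32 members the AAA share and the change with loss of Ctu1 had a Pearson r of 0.18 with DMSO and -0.11 with torin 1, and with the interaction -0.18 (Spearman rho 0.21, -0.13 and -0.20), where all points come from the same libraries. The 16 members with more AAA than the median and the other 16 had median interaction values of -0.68 and -0.54.

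Of the proteins with roles beyond the ribosome, Rps6 had between 375 and 521 CPM (median 437) in control with DMSO, between 208 and 241 CPM (median 213) with torin 1, 465, 460.0, 385, 405 and 396 CPM in Ctu1 iKO with DMSO and between 121 and 155 CPM (median 140.1) with torin 1. Rpsa, also known as a laminin receptor, had between 1298 and 1607 CPM (median 1382), between 648 and 775 CPM (median 719), 1318, 1336, 1407, 1107 and 1194 CPM and between 381 and 479 CPM (median 412) in that order. In both, each torin 1 group lay below every DMSO library and the Ctu1 iKO torin 1 group below every control torin 1 library. Rps27a had between 682 and 992 CPM (median 890.1), between 386 and 449 CPM (median 426), 851, 873, 823, 951 and 879 CPM and between 293 and 347 CPM (median 319). Fau had between 1973 and 2773 CPM (median 2155), between 1023 and 1513 CPM (median 1197), 2563, 2708, 2268, 1859 and 1924 CPM and between 722 and 961 CPM (median 862). By edgeR without a block the interaction did not pass in these ubiquitin-type fusions, at -0.42 for Rps27a (SE 0.10, adjusted p = 0.0638) and -0.52 for Fau (SE 0.18, adjusted p = 0.509). Both passed with the replicate block, and Rps27a also with DESeq2. In Fau the DMSO libraries were spread widely in both genotypes, with replicates 1 and 2 the highest in control and in Ctu1 iKO.

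Rack1, a WD-repeat protein bound to the head of the subunit, also fell with torin 1, by 0.98 in control (SE 0.09) and 1.43 in Ctu1 iKO on the log2 scale, and its interaction did not pass (-0.44, adjusted p = 0.212). Among 58 factors that assemble the 40S subunit in the nucleolus and cytoplasm, 2 fell in footprints with torin 1 in control and 7 in Ctu1 iKO (edgeR), with medians of -0.23 and -0.21. Of all genes tested, 4.33% and 4.52% fell in footprints. On RNA 9 and 3 of them fell (of all genes 7.4% and 4.52%), with medians of -0.29 and -0.24, and the median interaction in footprints was 0.06, with values from -0.28 to 0.35. Bysl, needed for late pre-40S assembly, had a log2 change in footprints of -0.83 in control (adjusted p = 0.00173), where that of its RNA was -0.77 (adjusted p = 0.00817), and -0.65 in Ctu1 iKO (adjusted p = 0.0191). Nob1, the endonuclease that finishes 18S rRNA, had log2 changes of -0.44 (adjusted p = 0.0306) and -0.58 (adjusted p = 0.0276) in control and Ctu1 iKO. Of the factors bound to U3 RNA, Snu13 was at -0.51 in Ctu1 iKO (edgeR adjusted p = 0.0199) and Mphosph10 at -0.44 in control (edgeR adjusted p = 0.0633).

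Of 47 large subunit proteins, 45 fell in footprints with torin 1 in control and 47 in Ctu1 iKO (edgeR), with medians of -0.91 and -1.55, and 22 passed in the interaction (median -0.64). Of 29 proteins of the mitochondrial small subunit, 3 fell in control and 3 in Ctu1 iKO, with medians of -0.14 and -0.23, and a median interaction of -0.10. Of all genes, 4.33% fell in control, 4.52% in Ctu1 iKO and 0.639% passed as lower in the interaction, and no test between the lists was made. Over the 23 footprint libraries, the genes whose log2 CPM was most like the mean of the small subunit genes were Rps27rt, Rpl13a, Gm45713, Rpl27a and Rpl26, with Pearson r from 0.992 to 0.995 among 7416 candidate genes outside the list. Of these, Rps27rt shares sequence with a member.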

How the data were processed

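Ribosome footprints and poly(A) RNA of 23 EPP2 samples were taken as read counts per gene, as deposited by the authors, 1 table per library. A total is the sum over the entries of that library, 10420 with DMSO and 9936 with torin 1, of 10464 symbols in either. CPM values and shares of DMSO and torin 1 libraries therefore rest on gene lists that differ in part. Per the submitters' notes, adapters were removed with cutadapt 3.4, footprints were deduplicated with UMI-tools 1.1.1 and reads were aligned with STAR (2.5.3a for footprints, no version given for RNA) to mm10, while the study's methods name hg19. The study's methods give the GeneCounts option of STAR for footprints, which keeps reads that match a single locus, and do not say that the deposited tables are its output. All RNA counts were even numbers, and how this came about was not tested. Samples were grouped by genotype and treatment. The labels do not say whether replicates were separate cultures, so p-values measure the spread between these samples, which may be technical, and the methods and legends of the study give different replicate numbers. The methods name 2 biologically independent replicates, made on consecutive days, which is fewer than the libraries in any group here. No 2 libraries of a group agreed within sampling noise.

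Genes with a mean count of at least 10 were tested with edgeR 4.0.16 (TMM scaling, quasi-likelihood test, Benjamini-Hochberg adjustment over all genes tested, threshold 0.05), and translational efficiency as the interaction of assay and group. CPM values use library totals. Comparisons that have a group in common share its libraries, so their values are given side by side. Members and gene lists, and the head and body assignment, were chosen with earlier results of these data known. Genes named with values were Rps3, Rps25, Rps6, Rpsa, Rps27a, Fau, the members at the extremes of change, p or density in each comparison (3 or 4 at each end) and, of the maturation factors, the 3 with the smallest p in each torin 1 comparison. Rps12, Rps13, the near copies and the members whose groups overlapped were named after their values were seen. Likeness was Pearson's r of log2 CPM. Some members enter the counts and medians but are not reported here by name, in the text or in plots of single genes. Each fit was tested on simulated data. Same-numbered libraries deviated together (lowest correlation 0.32) in all RNA comparisons and, in footprints, between torin 1 and DMSO in control and between the genotypes with torin 1, but not in the other footprint comparisons (lowest -0.09), a pairing that comes from the data and not from the labels. Alternatives were DESeq2 1.42.0, library totals, TMM factors from genes outside the ribosomal proteins, no filter, a replicate block, other sets of replicates and leaving out 1 library at a time.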

Additional observations from a re-analysis of the deposited data

Results flagged for a closer look

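The difference of the torin 1 change in footprints, Ctu1 iKO minus control, passed edgeR's interaction test in the members given here. In log2 units it was for the head proteins Rps12 (-1.17), Rps18 (-0.9999), Rps20 (-0.81), Rps19 (-0.78), Rps25 (-0.56) and Rps3 (-0.51). For the body and platform proteins it was Rps2 (-1.01), Rps27 (-1.01), Rps7 (-0.88), Rps21 (-0.75), Rps3a1 (-0.69), Rps24 (-0.68), Rps23 (-0.64), Rps6 (-0.59) and Rpsa (-0.59). Every one of these was more negative in Ctu1 iKO.

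In the 4 footprint groups, 28 of the members and the mean of all 32 (116 sets of 5 or 6 libraries) were searched for a library far from the others of its group, which chance gives in about 1 in 20 sets. Rps28 footprints of control with DMSO replicate 4 stood at 2332 CPM, above the 1827 to 1950.4 of the other libraries.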

How the results depend on the processing

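No called value changed its direction under an alternative, and of the counts and medians of the comparisons 312 kept their side of the threshold and their size, while 17 counts were larger, 13 counts were smaller and 10 medians moved by more than the spread between replicates. With DESeq2, the members called on RNA were 10 and 3 with torin 1 in control and Ctu1 iKO and 3 between the genotypes with DMSO, 1 in footprints and 1 in translational efficiency between the genotypes with DMSO, 24 in translational efficiency between the genotypes with torin 1, and 25 in the interaction. With the replicate block they were, on RNA, 26, 12, 4 and 3 (torin 1 in control, torin 1 in Ctu1 iKO, genotypes with DMSO, genotypes with torin 1), 2 in footprints between the genotypes with DMSO (of 169 genes lower), where the numbers do not pair the libraries, 28 in translational efficiency between the genotypes with torin 1 and 31 in the interaction, and the block changed no other count of called members by over 1.5 times. Over all genes the block raised the calls in footprints with torin 1 in control from 714 to 2019, between the genotypes with torin 1 from 479 to 1425 and in the interaction from 63 to 139, those on RNA from 1259, 794, 518 and 126 to 4206, 3378, 2831 and 3162, and those in translational efficiency with torin 1 in control from 113 to 228 and between the genotypes with torin 1 from 11 to 107. DESeq2 called 1963, 1609, 1530 and 1092 genes on RNA, 700 and 842 in footprints between the genotypes (DMSO, torin 1; 277 and 479 by edgeR), 109 in the interaction, and 227, 316, 21 and 102 in translational efficiency (170 and 0 by edgeR in Ctu1 iKO and between the genotypes with DMSO). Replicates 1 and 2 alone called 134 and 144 genes in footprints with torin 1 in control and Ctu1 iKO (the latter 788 otherwise), and all replicates called 0, 2677 and 0 on RNA with torin 1 in Ctu1 iKO and between the genotypes with DMSO and with torin 1. With all replicates, of which 6 RNA libraries lay against their labels, the members called were 9 on RNA with torin 1 in control, 10 on RNA between the genotypes with DMSO and 27 in translational efficiency between the genotypes with torin 1 (over all genes 916, 2677 and 113), and the RNA medians were 0.064 with torin 1 in Ctu1 iKO and 0.19 between the genotypes with DMSO. With library totals, medians were -1.53 for footprints with torin 1 in Ctu1 iKO and -1.08 and -1.66 for translational efficiency in control and Ctu1 iKO, and 2 members were called in translational efficiency between the genotypes with torin 1, of 3 genes in all. This scaling moved the median of all genes in footprints with torin 1 in control from 0.01 to 0.10 and the calls from 427 lower and 287 higher to 327 and 602, those in Ctu1 iKO from 445 and 343 to 317 and 580, and in translational efficiency in Ctu1 iKO that median from 0.03 to 0.20. Replicates 1 and 2 alone gave 0 members between the genotypes with torin 1 and 0 in the interaction by edgeR, and a median of -1.74 with torin 1 in Ctu1 iKO. Leaving out 1 sample at a time gave 0 to 2 members on RNA with torin 1 in control, a median of -1.34 to -1.11 in translational efficiency with torin 1 in control, and 0 to 7 members with a median of -0.88 to -0.73 in translational efficiency between the genotypes with torin 1, where 2 samples are then left in 1 group. Over all genes it left 412 to 1233 called on RNA and 63 to 104 in translational efficiency with torin 1 in control, 123 to 1123 and 105 to 163 in Ctu1 iKO, 144 to 285 in footprints between the genotypes with DMSO and 0 to 8 in translational efficiency between the genotypes with torin 1. Of these changes the cause was not tested, other than that fewer libraries were fitted.

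Levels of members with near copies, changes in total translation and small changes of RNA in 3 against 3 libraries are limited by counting, by scaling and by the number of libraries.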

Other observations

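Sets of members that the comparisons above do not use gave these values. In footprints with torin 1, Rps28, Rps14 and Fau had the highest densities in Ctu1 iKO, where the median over genes ranged from 109 to 3051 CPM per kilobase of coding sequence, a 28.1-fold span against 20.6-fold in control with torin 1, 20.4-fold in Ctu1 iKO with DMSO and 22.5-fold in control with DMSO. Over the 23 footprint libraries, the log2 CPM of single members correlated with the mean of all members at a Pearson r from 0.928 to 0.996, in libraries that the members share. Each member is itself part of that mean, which raises r.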
